A study of Mus musculus with 8 samples.

Results

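The genes of the melanin-concentrating hormone (MCH) neuron, the peptide cell that lies among the hypocretin cells of the lateral hypothalamus, were followed in RNA purified from hypocretin neurons of the mouse. 4 genes were taken, namely Pmch, Cartpt, Tacr3 and Mchr1, with every probe set whose only gene symbol in the platform annotation is 1 of them. These are 4 of 18193 genes with such a probe set, and 8 of the 45101 probe sets on the array. Pmch and Cartpt have 1 probe set each, and Tacr3 and Mchr1 have 3 each. The members were taken by gene name, with earlier results of these data known.

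The RNA came from mice with the Hcrt bacterial artificial chromosome transgene, line JD218, with a mixed Fvb and c57/bl6j background. The labels name the line after Hcrt, the hypocretin gene, and cite the method in which the transgene tags ribosomes, so that ribosome-bound RNA of the cells that carry it can be pulled down (translating ribosome affinity purification). Thalamus and hypothalamus of adults of both sexes, 6 to 12 weeks old, were dissected together, and each preparation pooled 5 mice. From each of 4 preparations the immunoprecipitate and the unbound fraction, which stands for the RNA of the whole tissue, were hybridised to 1 Affymetrix array each. All 8 samples carry the transgene, and no precipitate from mice without it was among the arrays, so signal that the purification carries over was not measured. The fractions differ in the cells sampled and also in whether the RNA was on ribosomes, and these cannot be told apart. Fewer cells of a type and less RNA per cell cannot be told apart in such bulk samples either.

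MCH neurons are an orexigenic and sleep-promoting counterpart of the hypocretin neurons, with which they are intermingled but not identical. Pmch encodes the precursor that is cut into MCH and its companion peptide neuropeptide EI, and Cartpt encodes the precursor of the CART peptides, which many MCH neurons make as well as neurons of the arcuate and paraventricular nuclei. Tacr3 is the neurokinin B receptor, found on a large subset of MCH neurons and on other hypothalamic cells. Mchr1 is the receptor for MCH, couples to G proteins of the Gi/o and Gq classes, sits on the primary cilium of many neurons and is carried by target cells rather than marking the MCH neuron.

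For Pmch, Cartpt and Tacr3, the members that were lower in the immunoprecipitates, the 150 bases before each annotated start are shown, from RefSeq's promoter table for GRCm38.p6. All 4 members were matched there. Capitals mark 2 motifs searched on both strands, the TATA box TATAAA and the cyclic AMP response element TGACGTCA, which do not overlap. The windows are chr10:88090922-88091071 on the plus strand for Pmch, chr13:99900684-99900833 on the minus strand for Cartpt and chr3:134828857-134829006 on the plus strand for Tacr3, each written 5′ to 3′.
Pmch: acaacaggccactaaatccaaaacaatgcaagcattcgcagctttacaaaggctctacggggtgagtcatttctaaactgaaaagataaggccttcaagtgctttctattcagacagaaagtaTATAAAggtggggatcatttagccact
Cartpt: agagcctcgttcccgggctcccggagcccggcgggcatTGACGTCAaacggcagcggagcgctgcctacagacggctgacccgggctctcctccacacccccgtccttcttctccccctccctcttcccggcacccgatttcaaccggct
Tacr3: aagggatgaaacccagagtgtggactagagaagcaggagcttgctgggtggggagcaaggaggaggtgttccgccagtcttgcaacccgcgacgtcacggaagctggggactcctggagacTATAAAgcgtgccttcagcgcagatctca
TATAAA begins at position -27 of Pmch and at -29 of Tacr3 relative to the start, and 7.57% of all 32851 windows of this length hold it. TGACGTCA begins at -112 of Cartpt, and 1.36% of windows hold it. The window of Mchr1 has neither motif. These matches are descriptions of the sequence only, and shared regulation was not tested.

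Pmch stood at log2 levels of 13.1, 12.91, 12.39 and 13.86 in unbound fractions 1 to 4 and at 11.05, 9.65, 9.56 and 9.67 in the matching immunoprecipitates. The fractions did not overlap, and the highest precipitate, from preparation 1, lay below the lowest unbound fraction. Pmch fell 8.47-fold (log2 difference of means -3.08 ± 0.39 SE, limma adjusted p = 0.0001). The fall was 4.14-, 9.62-, 7.11- and 18.2-fold within the 4 preparations. The transcript was far above background even in the precipitates, where the lowest linear value was 759 against a minimum of 50 taken for a measured signal.

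Cartpt was at 9.77, 11.17, 11.18 and 10.32 in the unbound fractions and at 8.64, 8.59, 7.98 and 7.43 in the immunoprecipitates (log2 level). Again the lowest unbound value lay above the highest precipitate. Cartpt fell 5.47-fold (log2 difference -2.45 ± 0.39 SE, limma adjusted p = 0.00039), by 2.19-, 6.01-, 9.21- and 7.39-fold within preparations. Preparation 1 had both the lowest unbound and the highest precipitated level, and so the smallest fall.

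Tacr3 was measured by 2 of its 3 probe sets. Probe set 1440803_x_at, the one with the higher mean, gave 10.12, 10.05, 9.31 and 10.24 in the unbound fractions and 8.98, 7.95, 8.16 and 7.36 in the immunoprecipitates (log2 level). It fell 3.53-fold (log2 difference -1.82 ± 0.36 SE, limma adjusted p = 0.0014). The ending _x_at is the maker's mark for probes that may also bind other transcripts. Probe set 1437029_at, without that mark, gave 8.25, 8.08, 6.81 and 8.29 against 6.42, 5.89, 5.72 and 4.11 (log2 level). It fell at least 3.84-fold (log2 difference -2.32 ± 0.51 SE, limma adjusted p = 0.0028), a bound because 1 of 4 precipitates was under 50. Neither probe set overlapped between the fractions. The third, 1450278_at, stayed at 1 value in each group (log2 2.20 and 2.44), which is the low plateau of unmeasured probe sets, and was not tested.

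The fall of Tacr3 depends on the scale. On the log2 scale 1440803_x_at gave -1.01 with each array centred on the median of all probe sets and kept its call, -0.95 after quantile normalization (limma adjusted p = 0.040) and -0.90 when centred on the tested probe sets (limma adjusted p = 0.052), and neither of the latter was called. The other probe set gave -1.11 after quantile normalization (limma adjusted p = 0.073) and was called on the other scales. Pmch and Cartpt were called lower on every scale tried, between -5.05 and -2.16 and between -4.42 and -1.53.

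**Figure D1:**
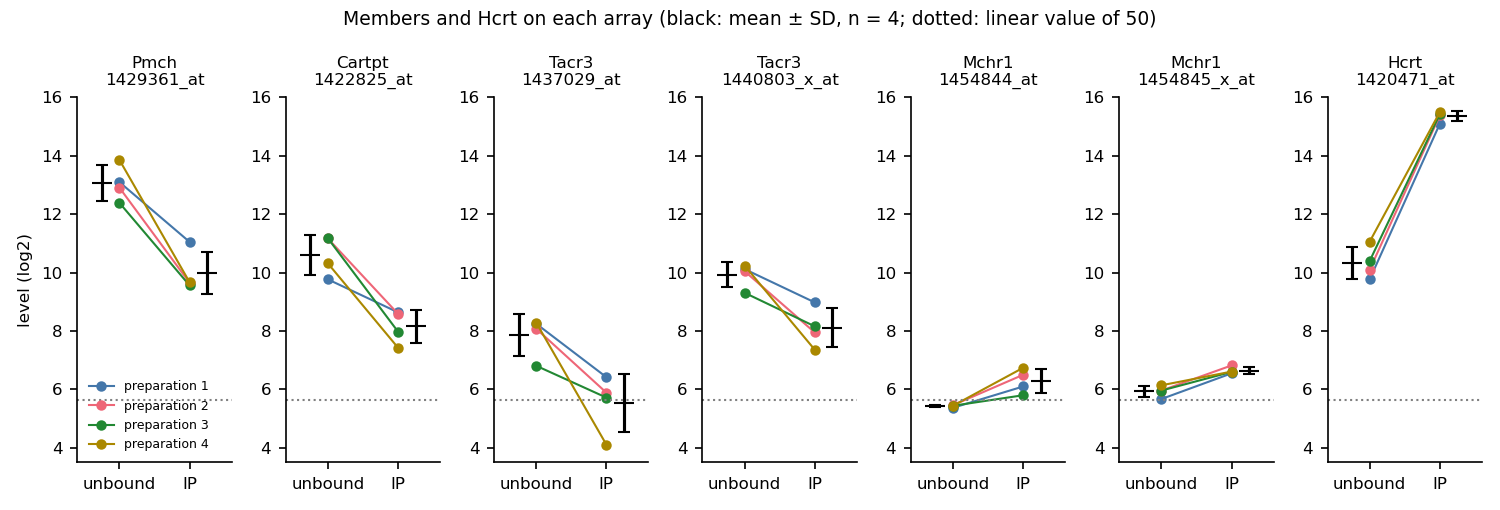
Log2 level of the 6 measured member probe sets and of Hcrt in the unbound fraction and the immunoprecipitate (IP). Lines join the fractions of 1 preparation, black bars give mean ± SD (n = 4) and the dotted line is the linear value of 50. Pmch, Cartpt and both Tacr3 probe sets fell in each preparation, while both Mchr1 probe sets lay slightly higher in the precipitates and close to the dotted line.

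Mchr1 lay on the other side. Probe set 1454845_x_at gave log2 levels of 5.67, 5.96, 5.96 and 6.14 in the unbound fractions and 6.55, 6.82, 6.60 and 6.61 in the immunoprecipitates. It too carries the _x_at mark, so its probes may also bind other transcripts. All precipitates lay above all unbound fractions, by 1.84-, 1.82-, 1.56- and 1.38-fold within preparations. The difference of means was 0.71 ± 0.22 SE (limma adjusted p = 0.015), or 1.64-fold, and did not reach the 2-fold that a call required. Of all tested probe sets 8.33% were higher at that adjusted p threshold whatever their size. Without both arrays of preparation 2 Mchr1 gave 0.67 (limma adjusted p = 0.078), and without those of preparation 3 it gave 0.74 (limma adjusted p = 0.050). Probe set 1454844_at was at 5.37, 5.46, 5.44 and 5.44 against 6.1, 6.5, 5.8 and 6.74, with a log2 difference of 0.86 ± 0.25 SE (limma adjusted p = 0.013). All 4 of its unbound values were under 50, so that its fold is given as at least 1.55. This probe set passed the filter through its 4 precipitates only, so its adjusted p is no separate support for a higher level. Without immunoprecipitate replicate 3, with or without the matching unbound array, it gave 1.02 and was called higher. That difference is also taken from unbound values under 50, so it is not a measured 2-fold and the call is no separate support either. The third probe set, 1428031_at, was on the low plateau at 2.23 and 2.21. Both measured probe sets were thus near the lower end of what the arrays measure.

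The direction of Mchr1 also depends on the scale. Quantile-normalised values put it at 2.00 and the forms of median centring at 1.52 and 1.64, all called higher. On the scale of the poly-A spike-in controls it was called lower at -1.25, and its other probe set at -1.11. On the scale of the hybridisation controls the median over tested probe sets was -0.87. Relative to it Mchr1 was higher by 1.59, and Pmch, Cartpt and Tacr3 stood at -2.21, -1.58 and -0.95. That order is the same on any scale that adds a constant to each group.

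**Figure D2:**
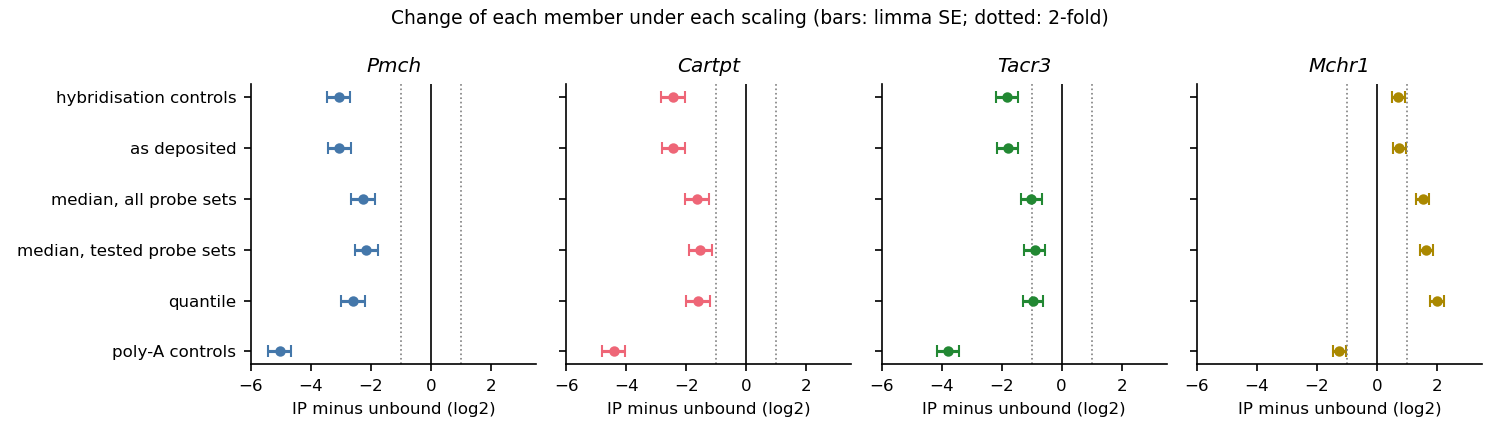
Log2 difference between immunoprecipitate and unbound fraction for the probe set with the highest mean of each member under 6 scalings, with limma SE as bars and 2-fold as dotted lines. Pmch and Cartpt lay beyond 2-fold lower throughout, Tacr3 came to -0.90 at its smallest, and Mchr1 ran from -1.25 on the poly-A controls to 2.00 after quantile normalization.

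The counts are to be read against all probe sets. Of the 8 member probe sets 6 passed the filter (50 or more on at least 4 arrays), 4 of them were called lower and 0 higher, at an adjusted p under 0.05 and at least 2-fold. Over all 17865 tested probe sets 45.1% were called lower and 4.88% higher. Groups without overlap, with the precipitates below, were found for 50.1% of tested probe sets, and with the precipitates above for 6.85%. A lower call is therefore the common outcome on the scale of the hybridisation controls, and the calls of Pmch, Cartpt and Tacr3 do not by themselves set them apart. That share depends on the scale. Against 8059 lower calls here there were 4228 or 3789 with median centring, 3715 after quantile normalization and 16823 on the poly-A controls. In size, 6.41% of tested probe sets changed further down than Pmch, 13.3% further than Cartpt and 24.4% further than Tacr3. Mchr1 was exceeded by 8.40% of probe sets.

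**Figure D3:**
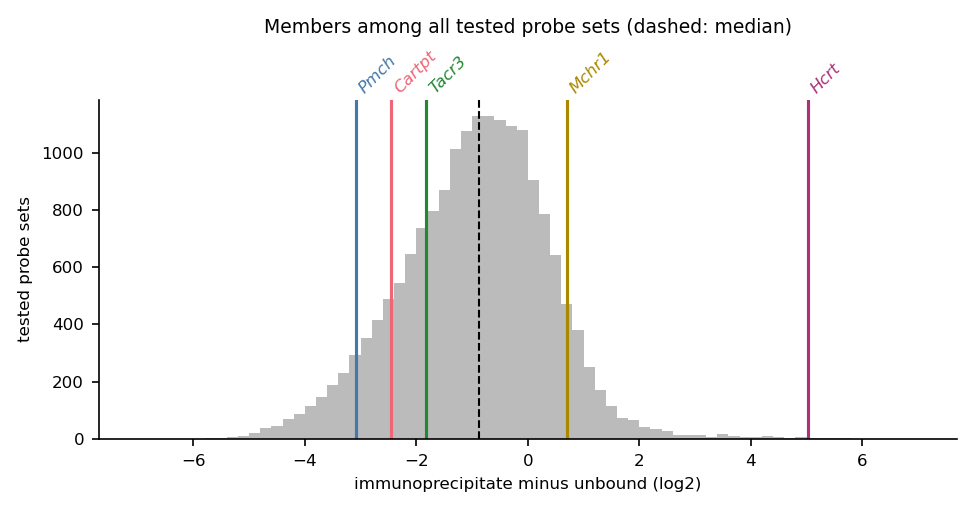
Histogram of the log2 difference between immunoprecipitate and unbound fraction over 17865 tested probe sets, with the members and Hcrt as vertical lines and the median as a dashed line. Pmch lies in the lower tail with 6.41% of probe sets below it, and Mchr1 lies to the right of the median of -0.87.

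Hcrt, the gene of the purified cell and the check of the labels, rose 32.5-fold (log2 difference 5.02 ± 0.25 SE, limma adjusted p = 6.5e-07), from 9.77, 10.1, 10.4 and 11.06 to 15.1, 15.39, 15.43 and 15.5. The change of each member was set against that of Hcrt on the same arrays, a difference in which a constant shift of an array cancels. Pmch changed by -8.11 relative to Hcrt (log2, SD 0.59 over 4 preparations), Cartpt by -7.47 (SD 0.77), Tacr3 by -6.84 (SD 0.61) and Mchr1 by -4.31 (SD 0.23). Each was negative in 4 of 4 preparations, with an exact permutation p of 0.0286 (two-sided, 4 arrays against 4, adjusted p = 0.0357 over 10 comparisons of changes). That p is the smallest this design allows, and the paired form cannot go below 0.125. Of all tested probe sets 99.8% had a lower change than Hcrt. A negative difference from Hcrt is therefore the outcome for almost any gene here and does not set the members apart.

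Among the members the changes were also unequal. Relative to Mchr1 the change was -3.80 for Pmch (SD 0.75), -3.16 for Cartpt (SD 0.80) and -2.53 for Tacr3 (SD 0.75) on the log2 scale, and Pmch fell 2.40-fold further than Tacr3 (log2 -1.26, SD 0.32 over 4 preparations). Each of these differences had 1 sign in 4 of 4 preparations (exact permutation p = 0.0286, adjusted p = 0.0357). Pmch against Cartpt gave -0.63 (SD 0.72, exact permutation p = 0.343), lower in 3 of 4 preparations, and Cartpt against Tacr3 gave -0.63 (SD 0.97, exact permutation p = 0.343), lower in 2 of 4. Those 2 differences were within the spread between preparations. With the other measured Tacr3 probe set, 1437029_at, in place of the _x_at one, Pmch against Tacr3 gave -0.76 (SD 0.80, exact permutation p = 0.114), with differences of -0.22, -1.08, -1.74 and -0.01 in the 4 preparations, so that the further fall of Pmch rests on the probe set taken. With that probe set Tacr3 gave -7.34 against Hcrt and -3.03 against Mchr1, each negative in 4 of 4 preparations (exact permutation p = 0.0286).

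The immunoprecipitates were not equal in the members. The precipitate of preparation 1 was the highest for Pmch, Cartpt and both Tacr3 probe sets, and that of preparation 4 was the lowest for Cartpt and both Tacr3 probe sets. Markers of other cells varied in the same precipitates. The summed linear level of 6 astrocyte markers, as log2, was 11.27 in precipitate 1 and 9.49 in precipitate 4, of 4 microglial markers 9.94 and 7.48, of 4 endothelial and mural markers 8.32 and 6.39, and of 4 thalamic neuron markers 11.61 and 8.80. These were the highest and lowest of the 4 precipitates in each list, while 5 oligodendrocyte markers ran from 14.09 in precipitate 4 to 15.19 in precipitate 2. In the unbound fractions the sums ran from 13.13 to 13.31, from 11.13 to 11.78, from 9.09 to 9.54, from 12.61 to 13.71 and, for oligodendrocytes, from 16.17 to 16.45. The sum of 4 hypocretin neuron markers ran the other way, from 15.44 in precipitate 1 to 15.99 in precipitate 4. Of these Hcrt, Pdyn and Nptx2 were each lowest in precipitate 1 and highest in precipitate 4, but Lhx9 was at 11.16 and 11.05. The sum of 6 pan-neuronal markers ran from 15.31 in precipitate 3 to 15.62 in precipitate 4. The microglial C1qa and Cx3cr1, the endothelial Cldn5 and the thalamic Lef1 were under 50 on all 4 precipitates and above it on all 4 unbound arrays. The endothelial Flt1 and Pecam1 were under 50 on all 8 arrays and bear on neither fraction. The endothelial and mural sum in the precipitates thus rests on Rgs5, the only gene of that list to reach 50 there. Of the thalamic list Tcf7l2 and Rora were highest in precipitate 1, but Prkcd was at 9.06 there and at 10.56 in precipitate 2. The part of carried-over RNA in the precipitated level of Pmch, Cartpt or Tacr3 was not tested.

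Without precipitate 1 Pmch gave -3.44, Cartpt -2.61 and Tacr3 -2.11 on the log2 scale, and without precipitate 4 they gave -2.98, -2.21 and -1.57, all still called lower. RNA quality varied with preparation too. The 3' minus 5' signal of Gapdh (log2) was 4.50 in precipitate 4 and 3.36 in unbound fraction 4, against 2.12 to 2.31 and 1.94 to 2.08 in the others. The same measure of Actb was 4.05 in precipitate 1 and 4.11 in precipitate 4, against 3.14 and 3.53 in precipitates 2 and 3, and ran from 3.01 to 3.80 in the unbound fractions. The part of RNA quality in these values was not tested, and without both arrays of preparation 4 Pmch gave -2.71, Cartpt -2.31 and Tacr3 -1.46, each called lower.

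**Figure D4:**
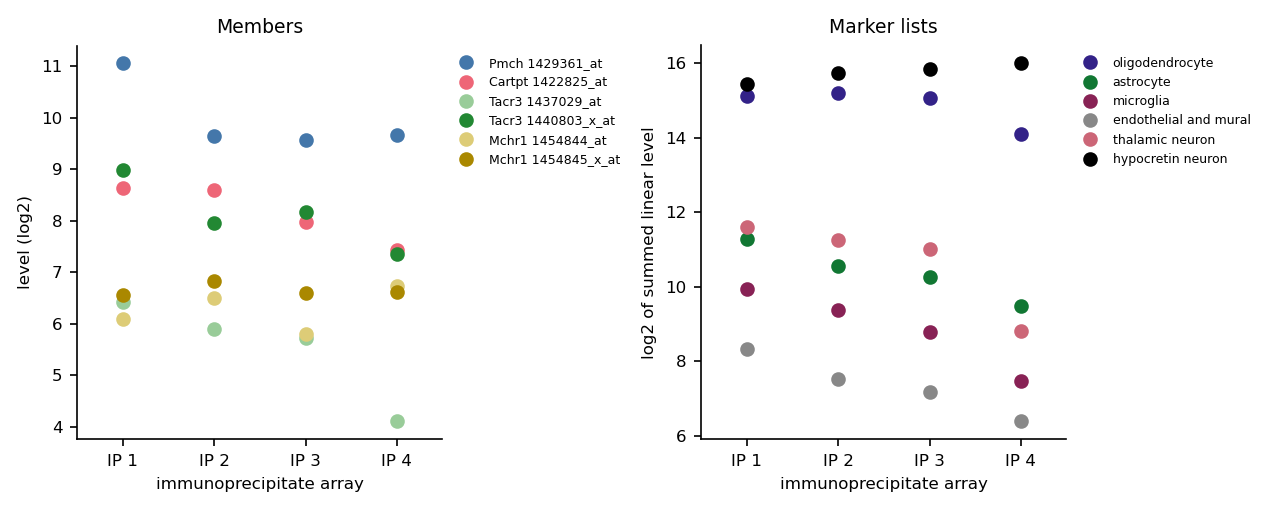
Left, log2 level of the 6 measured member probe sets on each immunoprecipitate (IP) array; right, log2 of the summed linear level of each marker list on the same arrays. Precipitate 1 is highest and precipitate 4 lowest for the astrocyte, microglial, endothelial and mural, and thalamic lists, and precipitate 1 is highest for Pmch at 11.05.

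Other properties ascribed to MCH neurons were read from a list of 13 genes, 9 of them tested. 1 was called higher and 3 lower, with a median of 0.03, where all 10398 tested genes had a median of -0.85, 4.74% called higher and 44.2% called lower. The GABA-synthesising enzymes Gad2 and Gad1 are expressed by MCH neurons and by inhibitory neurons. They fell 4.16-fold (log2 difference -2.06 ± 0.30 SE, limma adjusted p = 0.00025) and 3.19-fold (-1.67 ± 0.24 SE, limma adjusted p = 0.00023). Gad1 missed 2-fold after median centring, at -0.86 and -0.75. The vesicular glutamate transporter gene Slc17a6 gave -0.69 (limma adjusted p = 0.025) with overlapping fractions and was not called. It gave 0.12 and 0.23 with median centring, -0.44 after quantile normalization, and was called lower on the poly-A controls (-2.66). The insulin receptor gene Insr fell 2.54-fold but was not called on the median-centred or quantile-normalised scales (-0.54, -0.42 and -0.35). Avpr1a, a vasopressin receptor, rose at least 18.3-fold, with all unbound values under 50, so that it passed the filter through its precipitates only. The potassium channel subunit Kcnj11 of the glucose-sensing channel gave 0.93 and the nesfatin precursor Nucb2 gave 0.72, neither at 2-fold. The hypocretin receptor Hcrtr1 gave 0.03 (limma adjusted p = 0.95). With either median centring 4 of the list were called higher and 1 lower, with quantile normalization 5 and 2, and with the poly-A controls 1 and 8.

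Parpbp, a DNA repair gene whose annotation overlaps that of Pmch on chromosome 10, was on the same list. Its 2 probe sets did not reach 50 on any array and lay between 2.16 and 3.09 on the log2 scale.

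The enzymes that turn precursors such as pro-MCH and pro-CART into peptides are shared by most peptide neurons. Of 5 tested, 2 were called higher and 0 lower (median 0.45). All tested genes had a median of -0.85, with 4.74% called higher and 44.2% called lower. Pcsk1, the convertase that cuts precursors, rose 41.0-fold (log2 difference 5.36 ± 0.32 SE, limma adjusted p = 1.3e-06). Pam, which amidates peptide ends, rose at least 2.99-fold. All its unbound values were under 50, so that it passed the filter through its precipitates only. The carboxypeptidase Cpe gave -0.32, the convertase inhibitor Pcsk1n 0.45 and the convertase chaperone Scg5 -0.67, none of them called. Pcsk1 and Pam were higher on each scale tried. Pcsk1n was called higher with either median centring (1.26 and 1.37), and Cpe, Pcsk1n and Scg5 were called lower on the poly-A controls.

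Of 5 genes of tachykinins and their other receptors 2 were tested and both were called lower, where 44.2% of all tested genes were. Tac2, the precursor of the Tacr3 ligand neurokinin B, was at log2 levels of 8.65 to 10.24 in the unbound fractions and 5.10 to 6.33 in the precipitates. It was at least 10.7-fold lower (limma adjusted p = 6.8e-05), with 3 of 4 precipitates at or above 50. Tac1, the substance P precursor, fell 5.31-fold (limma adjusted p = 4.8e-05). Both were called lower on every scale tried. Tac4, Tacr1 and Tacr2 did not pass the filter.

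Of 8 tested partners of the MCH receptor 0 were called higher and 3 lower (median -0.65), where 44.2% of all tested genes were lower. Either median centring gave 1 higher and 1 lower, quantile normalization 0 and 1, and the poly-A controls 0 and 8. Rgs8, a regulator that quickens the turn-off of G proteins and binds the receptor, fell 7.33-fold (log2 difference -2.87 ± 0.29 SE, limma adjusted p = 3.1e-05) and did so on every scale. The inhibitory G protein subunit Gnai3 fell 3.09-fold and Gnaq, of the phospholipase-coupled class, 2.02-fold. Neither was called on the median-centred or quantile-normalised scales, where Gnai3 ran from -0.88 to -0.70 and Gnaq from -0.51 to -0.09, and Gnaq also missed 2-fold on the values as deposited. The inhibitory subunit Gnai2 gave 0.46 and was called higher with either median centring (1.27 and 1.38). The receptor-binding zinc finger protein Zmynd19 gave -0.03.

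Carriers of receptors to the primary cilium, where Mchr1 is placed by the Bardet-Biedl protein complex and Tulp3, were tested for 11 of 12 genes. 4 were lower and 0 higher (median -0.77, where all tested genes had -0.85 and 44.2% were lower). Bbs7, a subunit of that complex, was at least 4.79-fold lower with 3 of 4 precipitates at or above 50. Bbs1 fell 4.28-fold, Tulp3 4.06-fold and Ttc8 2.09-fold. Ttc8 was not called on the median-centred and quantile-normalised scales (-0.25, -0.14 and -0.14), and Tulp3 missed 2-fold after quantile normalization (-0.96). The cyclase Adcy3, a marker of neuronal cilia, gave 0.00. Bbs9, another subunit of the complex, gave 0.18 and was called higher after quantile normalization (1.43, limma adjusted p = 0.024). On the poly-A controls all 11 were called lower.

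Of 8 tested peptide genes of the neighbouring hypothalamus 2 rose and 3 fell (median -0.13), where 4.74% of all tested genes were called higher and 44.2% lower. Either median centring gave 3 higher and 2 lower, quantile normalization 2 and 2, and the poly-A controls 2 and 6. Hcrt and the dynorphin precursor Pdyn (23.7-fold, log2 4.56 ± 0.38 SE, limma adjusted p = 9.9e-06) rose, and the stress hormone gene Crh fell 12.4-fold and Npy, a feeding peptide of the arcuate nucleus, 7.30-fold. These 4 kept their direction and call on each scale. Hcrt and Pdyn are also on the list of 4 hypocretin neuron markers, so the count of 2 higher is not one of neighbouring cells. No other gene of the peptide list was called higher on the scale of the hybridisation controls. The change of Pmch, -3.08, lay between those of Crh, -3.63, and Npy, -2.87.

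**Figure D5:**
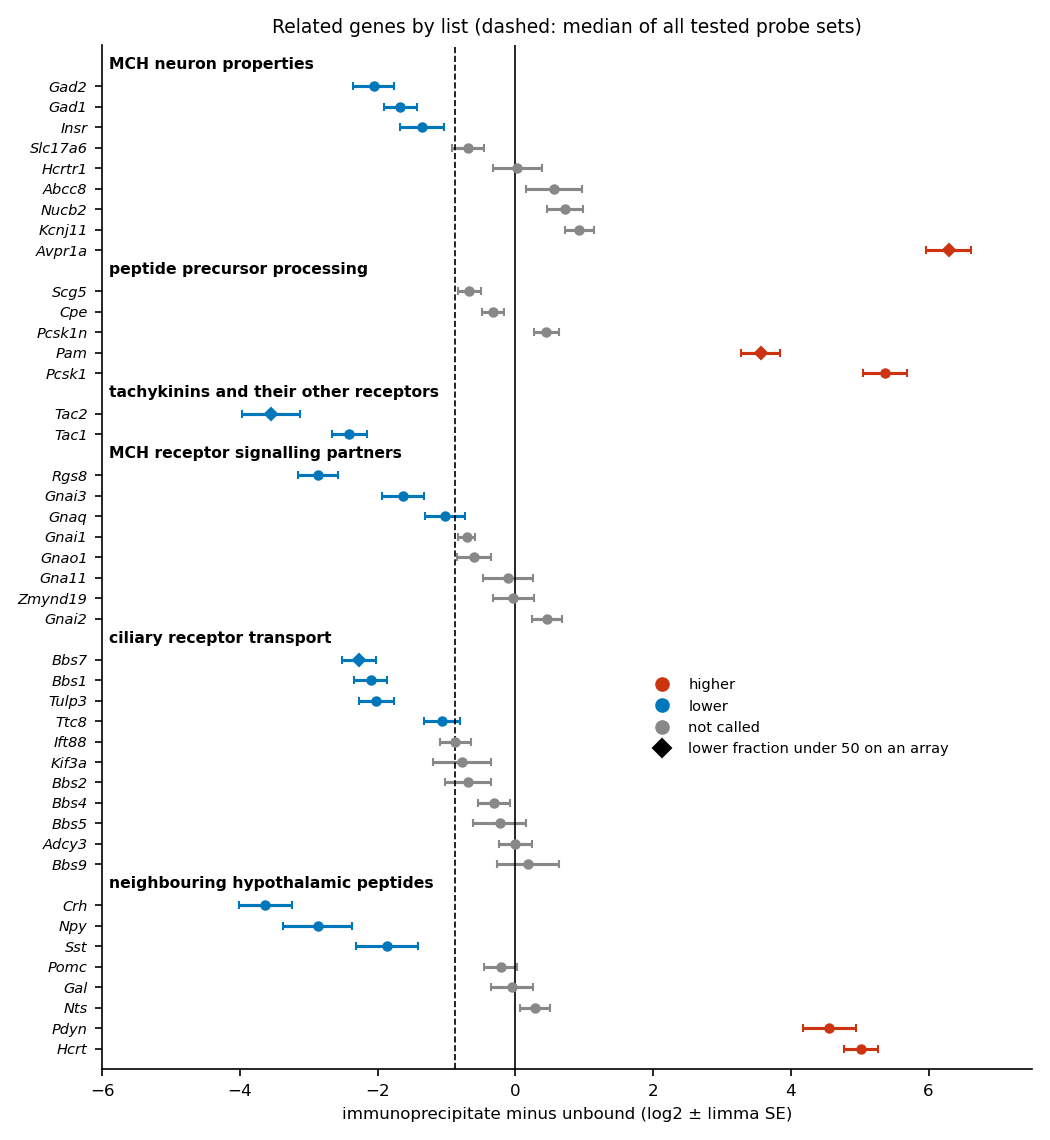
Log2 difference between immunoprecipitate and unbound fraction with limma SE for the tested genes of 6 lists related to MCH neurons, peptide processing, tachykinins, the MCH receptor, its ciliary transport and neighbouring peptides. Red marks genes called higher, blue lower and grey neither, diamonds mark genes with the lower fraction under 50 on at least 1 array, and the dashed line is the median of all tested probe sets, -0.87.

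The genes whose pattern over the 8 arrays came closest to each member were taken by the root-mean-square distance after each gene's own mean was subtracted. For Pmch these were Tia1, an RNA-binding protein, the serotonin receptor Htr1b and Aard, at distances of 0.19, 0.212 and 0.221 on the log2 scale. For Cartpt they were 4930447M23Rik, the helix-loop-helix factor Tcf4 and the nuclear factor Nfix (0.172, 0.195 and 0.204). For Tacr3 they were the ubiquitin ligase Marchf7, the ciliary protein Cc2d2a and the carbonic anhydrase Car2 (0.156, 0.161 and 0.181). All 9 were called lower, which follows from their choice by closeness to members called lower. Of all tested genes 44.2% were called lower. The nearest to Mchr1 were Gm5802, Trappc4 and the ribosomal protein gene Rpl8 (0.135, 0.137 and 0.138), none of them called. The members lay further from each other, with Pmch at 0.708 from Tacr3, 0.866 from Cartpt and 1.99 from Mchr1. Among 10398 genes on 8 arrays such neighbours describe these samples only.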

How the data were processed

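The authors deposited 1 value per probe set and array, taken as log2 from the range of the values. GCRMA is named in the submitters' processing notes (version not given in the sources used here), and the series' design text says that each group was normalized separately. Amplification ran over a pair of cycles from 20 ng of RNA, per the labels' protocols. Each group was shifted by 1 constant that set the mean of the 18 biotinylated hybridisation controls equal, as that text recommends (as deposited they differed by 0.022, log2). Of 45101 probe sets the 64 controls were left out, and 17865 at or above a linear 50 on at least 4 arrays went into limma 3.58.1 (R 4.3.3; lmFit and eBayes with trend, no block). A call needed 2-fold and an adjusted p (Benjamini-Hochberg) under 0.05. Between 33.6% and 34.8% of probe sets on precipitate arrays and 40.5% to 40.9% on unbound arrays reached 50; the number of arrays limits the precision. Folds against values under 50 are bounds, with those values raised to 50.

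Names came from the platform annotation (34945 probe sets with 1 symbol, 932 with several, 9160 not listed). A gene was represented by its tested probe set with the highest mean. Named genes are the members, the 3 nearest patterns of each, Hcrt, and, from every list, the called genes of largest change (4 at most); further list genes were named after their values were seen. Members and lists were chosen with earlier results of these data known. Ucp2, Pcsk2, Agrp and Arl13b were not analysed here.

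Replicate numbers join fractions of 1 preparation, per the labels. Across probe sets, the correlation of same-numbered arrays after subtracting group means was 0.44, 0.334, 0.255 and 0.587. The highest correlation of each precipitate with a differently numbered unbound array was -0.056, 0.257, 0.238 and -0.101. For replicates 2 and 3 the same-numbered array was thus only slightly closer. Alternatives were other scalings, filters, thresholds, no trend, averaging probe sets per gene, the replicate block, and leaving out arrays or preparations; centring on the tested probe sets was chosen after seeing the data. The fit was tested on simulated data. Differences of changes used exact permutation tests (scipy 1.17.1). Plots used matplotlib 3.10.9.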

Additional observations from a re-analysis of the deposited data

Results flagged for a closer look

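In 14 groups of 4 arrays (6 member probe sets and Hcrt, 2 fractions each) 2 held an array far from the other 3, by Dixon's criterion at 95%; chance gives this in about 5% of groups. Pmch in immunoprecipitate replicate 1 stood at 11.05 on the log2 scale, against 9.56 to 9.67 in the other precipitates. Tacr3 probe set 1437029_at in unbound replicate 3 stood at 6.81, against 8.08 to 8.29 in the other unbound fractions; probe set 1440803_x_at was also lowest there, at 9.31.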

How the results depend on the processing

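Pmch and Cartpt kept their direction and call in all 24 alternatives. Leaving out arrays or preparations, Pmch ran from -3.44 to -2.71, Cartpt from -2.89 to -2.20, Tacr3 from -2.11 to -1.46 and Mchr1 from 0.63 to 0.80 on the log2 scale, with no call changed for these probe sets (Mchr1 is uncalled throughout, its adjusted p reaching 0.078 without preparation 2). Tacr3 was no longer called at -0.95 after quantile normalization, -0.90 after centring on tested probe sets and, at -1.82, with a 4-fold threshold. Mchr1 was called higher at 1.52 and 1.64 after median centring over all and over tested probe sets, at 2.00 after quantile normalization and, at 0.71, with no fold threshold, and lower at -1.25 on the poly-A controls (-1.11 for probe set 1454844_at); the cause was not tested. Mchr1 had no value with the stricter minimum of 100 or as the mean of its probe sets, which fell below the filter. With the replicate block the values were the same (Pmch -3.08, limma adjusted p = 5.8e-05; Mchr1 0.71, limma adjusted p = 0.021) and no member's call changed. Differences from the change of Hcrt kept their sign in 5 alternatives each (6 for Tacr3, with its other probe set, chosen after seeing the data). Higher and lower calls numbered 872 and 8059 (9.76% higher), 3150 and 4228 (42.7%) or 3666 and 3789 (49.2%) with median centring, 3091 and 3715 (45.4%) when quantile-normalised, and 125 and 16823 (0.738%) with the poly-A controls, which move the median to -2.84. Higher calls were also 1402 with no filter, 1489 with no fold threshold, and 257 against 3714 lower at 4-fold and 402 against 3061 lower for means of probe sets. Poly-A means ran from 7.17 to 10.55 on unbound and from 10.03 to 11.22 on precipitate arrays.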

Other observations

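Of the peptide genes of the region, 3 were not called on the scale of the hybridisation controls, and their calls depend on the scale. Nts, the neurotensin precursor, gave 0.28 on the log2 scale (limma adjusted p = 0.29), Gal, the galanin precursor, -0.05 (limma adjusted p = 0.91), and Pomc, whose arcuate neurons also make CART peptides, -0.21 (limma adjusted p = 0.45), each against a median of -0.87 over tested probe sets. Nts was called higher with either median centring (1.09 and 1.20), and Nts, Gal and Pomc were called lower on the poly-A controls (-1.69, -2.01 and -2.18). Each was named after its value was seen. Sst, the somatostatin precursor, fell 3.65-fold (log2 -1.87 ± 0.45 SE, limma adjusted p = 0.0047), but was not called with either median centring (-1.06 and -0.94) or after quantile normalization (-1.13), with limma adjusted p from 0.064 to 0.094. Trh reached 50 on no precipitate array and was not tested.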
